A study of Mus musculus with 12 samples.

Results

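MHC class I and peptide loading genes were followed in the mouse macrophage cell line RAW264.7. The cells had spent 24 h with palmitic acid, a saturated fatty acid, with recombinant FABP4, a protein that binds fatty acids and is made by adipocytes and macrophages, with both or with neither. The genes were chosen by name, as all rows whose gene name was B2m, H2-D1, H2-K1, H2-T23, H2-M3, Tap1, Tap2, Tapbp or Nlrc5. All 9 were on the array, with 11 of its 55681 non-control probes, against 34797 gene names in all. All 11 probes were well above background on all 12 arrays, so each of the 9 genes was among the 17596 genes tested. The 4 groups, with 3 one-colour arrays each, were 0.2 mM palmitic acid with 200 nM FABP4, 0.2 mM palmitic acid alone, 200 nM FABP4 alone, and control cells with neither. The line was grown with 10% serum, and the medium of the treatment held 0.5% BSA free of fatty acids, which the controls received too. Nothing in the labels says whether a group's 3 arrays stem from separate cultures, and the p-values thus measure only a spread between samples that may be technical. One cell line was used, and 9 of 10 macrophage markers were well above background on all 12 arrays, the exception being Mertk. Of the markers of other cell types, 2 of 7 for dendritic cells (Zbtb46 and Itgax), 3 of 5 for T or NK cells (Cd3e, Lck and Nkg7), 3 of 5 for neutrophils (S100a8, Elane and Camp), 1 of 4 for B cells (Cd79a) and 1 of 5 for fibroblasts (Col1a2) were so too. For adipocytes and for epithelial cells it was 0 of 4 each.

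There were 2 slides. All 3 control arrays shared slide 1 with FABP4 array 1. The remaining 8 arrays, with both agents, with palmitic acid alone and FABP4 arrays 2 and 3, were on slide 2. The comparison of palmitic acid with control therefore runs entirely between slides, and slide and treatment cannot be told apart in it directly. The comparison of both agents with palmitic acid alone lies within slide 2. The share of spots well above background lay between 42.8% and 46.7% over the 12 arrays, and 0 spots were saturated.

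MHC class I molecules carry peptides from inside the cell to its surface, where CD8 T cells read them. Each is a heavy chain, such as H2-K1, H2-D1 or the non-classical H2-T23 and H2-M3, paired with beta-2 microglobulin, the product of B2m. Peptides cut by the proteasome are pumped into the endoplasmic reticulum by the transporter of Tap1 and Tap2 and fitted into the heavy chain with the help of tapasin, the product of Tapbp. NLRC5 is a transactivator of class I genes, and macrophages raise the pathway in response to interferon.

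The probes are 60 bases long, and 4 are given in lower case because the results turn on them. They are the probe of the only gene that passed the test and the pair with the longest run shared between genes. The last is the probe that departs from the other probe of its gene. Capitals mark the longest run shared with a probe of another gene, and only runs of 15 bases or more were looked for. Positions are on mm9, as the file headers name it.
Tap1: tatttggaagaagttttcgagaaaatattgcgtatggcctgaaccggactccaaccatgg
H2-K1, dimmer probe: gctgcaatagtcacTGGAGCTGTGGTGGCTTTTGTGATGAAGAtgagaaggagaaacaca
H2-T23: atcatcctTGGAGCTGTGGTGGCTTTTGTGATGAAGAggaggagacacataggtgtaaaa
Nlrc5, dimmer probe: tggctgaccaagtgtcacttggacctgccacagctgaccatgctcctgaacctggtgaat

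The Tap1 probe lies at chr17:34330854-34330913 on the plus strand, and no run of 15 bases in it recurred in a probe of another gene. The dimmer H2-K1 probe lies at chr17:34133984-34134043 on the minus strand. The H2-T23 probe lies at chr17:36167338-36167574 on the minus strand, where 60 bases of probe span 237 bases of genome. These probes of H2-K1 and H2-T23 hold the same 29 bases, so signal from one transcript could in part reach the probe of the other. Each also shares shorter runs with probes of further genes: H2-K1 22 bases with LOC100044874, and H2-T23 20 bases with Gm11127. How much signal crosses was not tested, and only probes on the array were compared. The dimmer Nlrc5 probe lies at chr8:97030478-97030624 on the plus strand and spans 147 bases. Among all 11 probes, 4 held a run of 15 bases or more that recurs in a probe of another gene: those of H2-T23 and Tapbp, the brighter Nlrc5 probe and the dimmer H2-K1 probe. The remaining 7 held none. The place of each probe in its transcript was not analysed, since the annotation used here is of another build. Levels below are log2 of the processed intensity relative to the 75th percentile of the same array, a probe's level is not set against another probe's, and the brightest probe stands for its gene unless a probe is named.

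Palmitic acid, without FABP4, raised 1 of the 9 genes, Tap1, past the test (limma, Benjamini-Hochberg adjusted over 17596 genes, threshold 0.05), and 0 fell. In all, 8.61% of the tested genes were called in this comparison, 4.88% upward and 3.73% downward, and 1 of 9 is near that background. The fold changes of 7 of the 9 genes were above 0, beside 50.1% of all tested genes. The median of the 9 was 0.09 on the log2 scale, beside 0.00054 for all tested genes.

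Tap1, a subunit of the peptide transporter, had levels of 2.46, 2.58 and 2.48 on the palmitic acid arrays, against 2.09, 2.29 and 2.30 on the control arrays. Every palmitic acid array was above every control array. The log2 fold change was 0.28 ± 0.063 (SE, n = 3 each), which is 1.21-fold with a 95% interval of 1.10 to 1.33, and the limma adjusted p was 0.0254. Tap1 is measured by 10 spots per array. The median SD between spots of an array was 0.044, and the SD between arrays of a group had a median of 0.050.

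The call of Tap1 rests on a few arrays and on the slides being left out of the model. Without control array 1 the change was 0.21 (limma adjusted p = 0.0720), without palmitic acid array 2 it was 0.24 (limma adjusted p = 0.0911) and without palmitic acid array 3 it was 0.29 (limma adjusted p = 0.0542). With slide as a random block it was 0.29 ± 0.085 (limma adjusted p = 0.161), and with slide as a fixed block, which rests on FABP4 array 1 alone, 0.30 ± 0.11 (limma adjusted p = 0.252).

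The heavy chains were above 0 without a call. H2-T23, a non-classical heavy chain read by NK cell receptors, had levels of 7.76, 7.92 and 7.82 on the palmitic acid arrays, against 7.63, 7.67 and 7.75 on the control arrays. The groups did not overlap, the log2 fold change was 0.15 ± 0.055, and the limma adjusted p was 0.116. H2-M3, which presents formylated peptides, had levels of 3.69, 3.59 and 3.68 with palmitic acid, against 3.47, 3.50 and 3.52 in control cells.

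Those H2-M3 groups did not overlap either, and its log2 fold change was 0.16 ± 0.061 (limma adjusted p = 0.140). The classical heavy chain H2-D1 had levels of 7.23, 7.38 and 7.35 with palmitic acid, against 7.11, 7.23 and 7.19 in control cells, and the lowest palmitic acid array lay level with the highest control array. Its log2 fold change was 0.14 ± 0.056 (limma adjusted p = 0.136). H2-K1, the other classical heavy chain, changed by 0.04 ± 0.054 (limma adjusted p = 0.670) and its dimmer probe by 0.08 (limma adjusted p = 0.370 over all probes).

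B2m, the common light chain, differed by 0.03 ± 0.045, with a 95% interval of -0.07 to 0.13. Tapbp, which encodes tapasin, differed by 0.09 ± 0.060. Tap2 and Nlrc5 were below 0, at -0.05 ± 0.13 and -0.03 ± 0.059. Of the 9 genes, 3 (Tap1, H2-T23 and H2-M3) had every palmitic acid array above every control array, beside 17.5% of all genes.

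**Figure D1:**
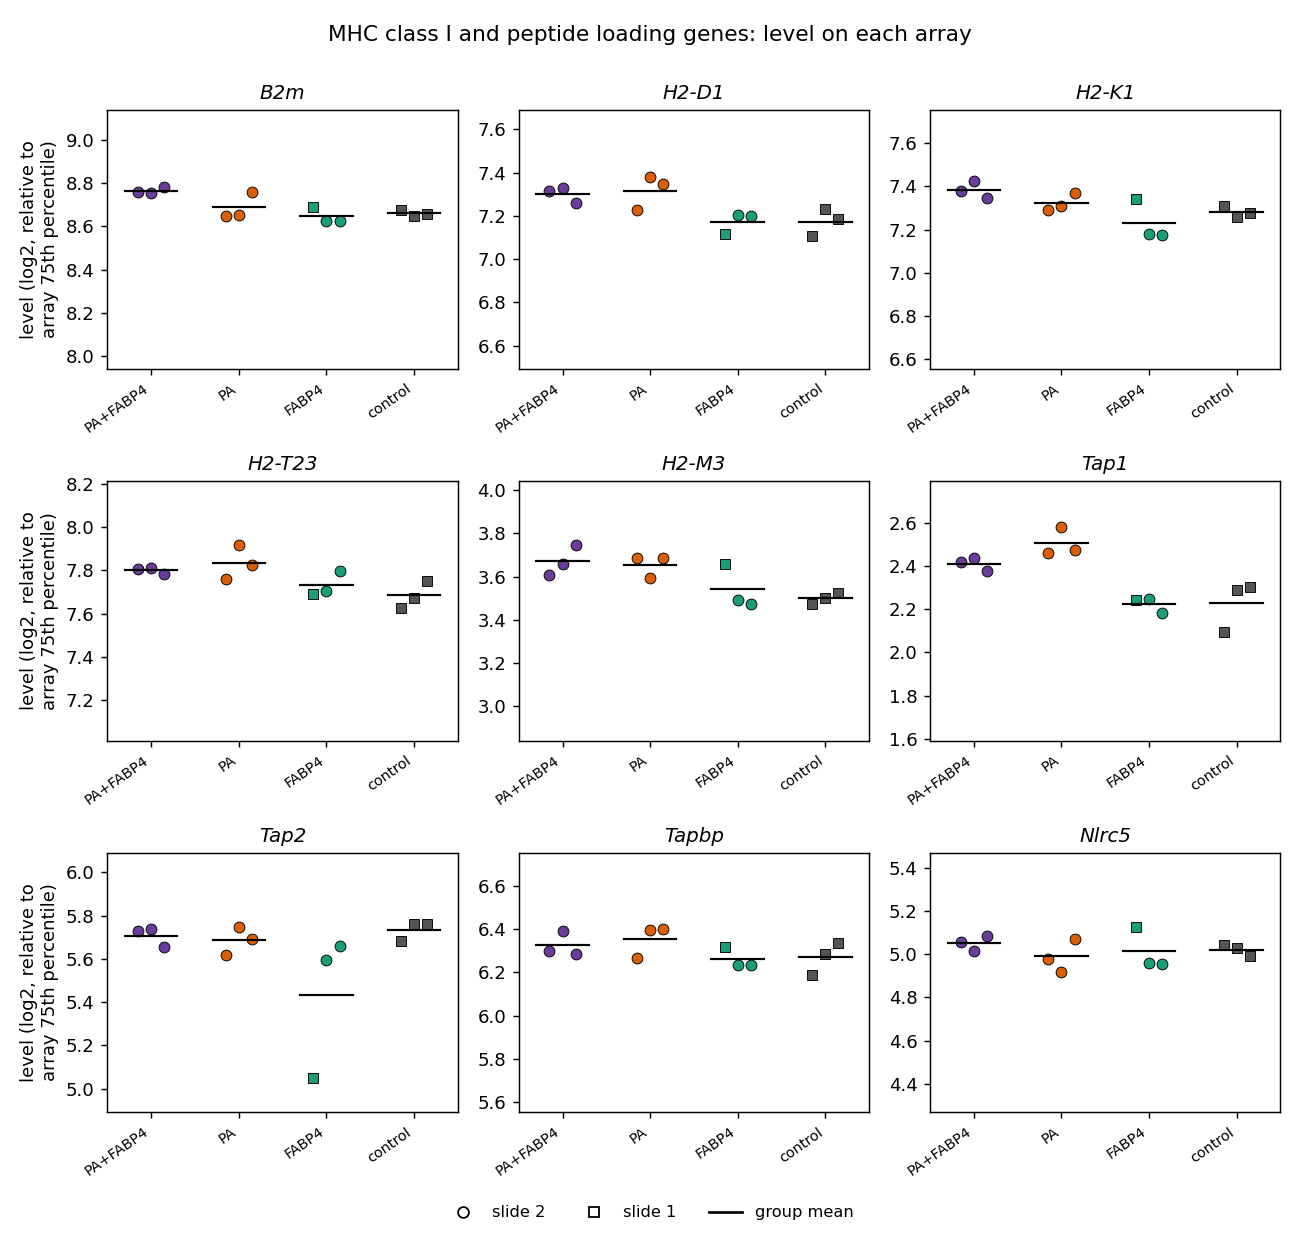
Level of each gene (y axis, log2 of the processed intensity relative to the array's 75th percentile; each panel spans the same height) on each array of the 4 groups (x axis), with squares for slide 1, circles for slide 2 and bars for group means. The Tap1 palmitic acid arrays sit between 2.46 and 2.58, above control arrays between 2.09 and 2.30, and 1 FABP4 array of Tap2 sits at 5.05, below all 11 other arrays.

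In cells that also had FABP4, palmitic acid raised 0 of the 9 genes past the test (limma), and 4 had an unadjusted p under 0.05, beside 20.9% of all tested genes. In all, 3.81% were called, 2.86% upward and 0.943% downward. The arrays in this comparison share none with palmitic acid against control. All 9 fold changes were above 0, beside 63.3% of all tested genes. The median of the 9 was 0.13, beside 0.05 for all tested genes. With quantile normalization and without scaling 6 of the 9 were above 0, and 8 with the percentile taken over detected probes.

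Tap1 had levels of 2.42, 2.44 and 2.38 on the arrays with both agents, against 2.24, 2.25 and 2.18 on the arrays with FABP4 alone. The groups did not overlap. Its log2 fold change was 0.19 ± 0.063, a fold of 1.14 with a 95% interval of 1.03 to 1.25, and the limma adjusted p was 0.136. Within slide 2 alone the change was 0.20 ± 0.058 (limma adjusted p = 0.157).

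B2m had levels of 8.76, 8.76 and 8.78 with both agents, against 8.69, 8.62 and 8.62 with FABP4 alone, and its log2 fold change was 0.12 ± 0.045 (limma adjusted p = 0.176). H2-K1 had levels of 7.38, 7.43 and 7.34 with both agents, against 7.34, 7.18 and 7.17 with FABP4 alone. These groups did not overlap either, though FABP4 array 1, the array on slide 1, lay nearly level with the lowest array of both agents. The H2-K1 change was 0.15 ± 0.054 (limma adjusted p = 0.158) and 0.21 ± 0.052 within slide 2 (limma adjusted p = 0.113); in the fit to all arrays without FABP4 array 1 it was 0.21 ± 0.046 and passed the test (limma adjusted p = 0.0476).

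H2-D1 changed by 0.13 ± 0.056, with groups that did not overlap, and a limma adjusted p of 0.226. H2-M3 changed by 0.13 ± 0.061 and H2-T23 by 0.07 ± 0.055. Tapbp changed by 0.06 ± 0.060 and Nlrc5, by its brighter probe, by 0.04 ± 0.059. The dimmer Nlrc5 probe had levels of -0.07, -0.11 and -0.12 with both agents, against -0.28, -0.32 and -0.35 with FABP4 alone. Those groups did not overlap, and the change of 0.22 had an unadjusted p of 0.0191 and a limma adjusted p of 0.174 over all probes. Of the 9 genes, 4 (Tap1, B2m, H2-K1 and H2-D1) had every array with both agents above every array with FABP4 alone, beside 19.3% of all genes.

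The mean of both palmitic acid effects was tested too, a choice made after seeing the data. It called 3 of the 9 genes in limma, beside 16.7% of all tested genes. Tap1 rose by 0.23 ± 0.044 (limma adjusted p = 0.00740), H2-M3 by 0.14 ± 0.043 (limma adjusted p = 0.0488) and H2-D1 by 0.14 ± 0.039 (limma adjusted p = 0.0422). With slide as a random block 1 of the 9 was called, and with slide as a fixed block 0 were.

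**Figure D2:**
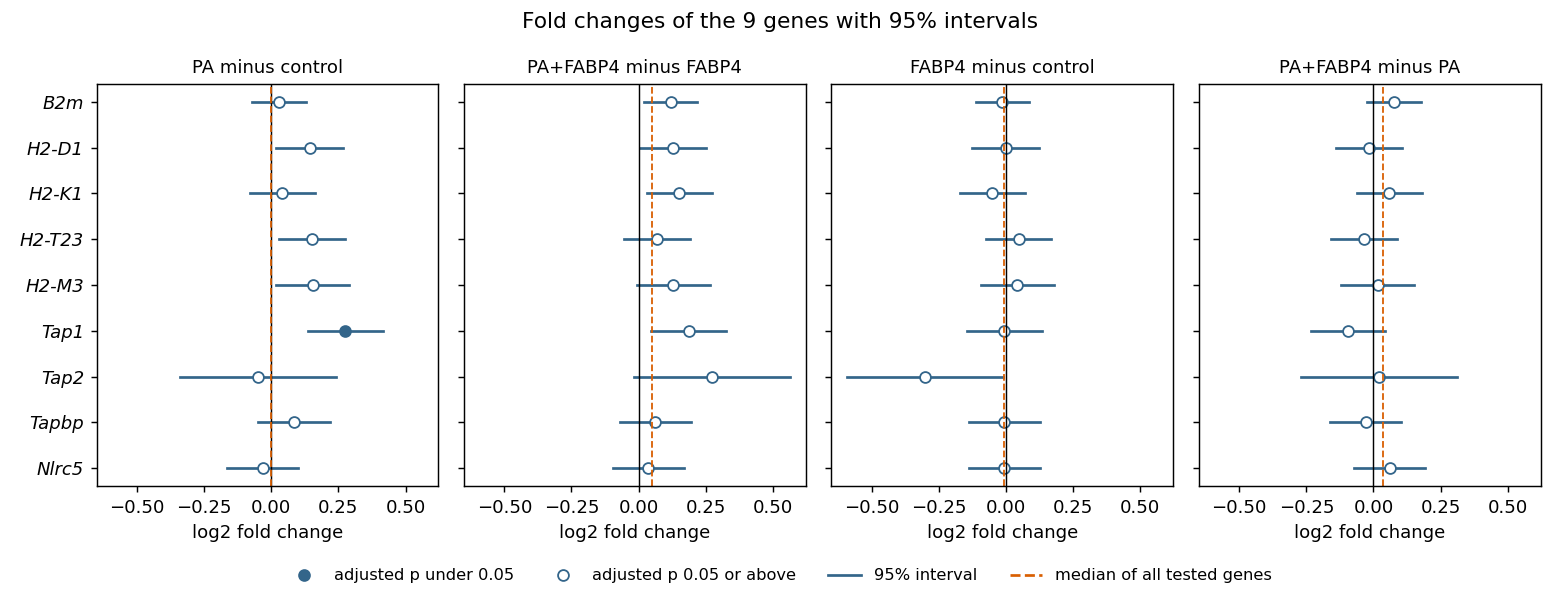
Log2 fold change of each gene (x axis, points, with 95% intervals as lines) in 4 comparisons, each panel titled by the group on top minus the group below. The only filled point, an adjusted p under 0.05, is Tap1 for palmitic acid against control, at 0.28, and the dashed line is the median of all tested genes.

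Added FABP4 changed 0 of the 9 genes, without or with palmitic acid, past the test (limma). Without palmitic acid 1 of the 9 had an unadjusted p under 0.05, beside 7.23% of all tested genes, and with it 0 had, beside 5.88%. Of all tested genes, 0.017% were called without palmitic acid and 0% with it. The medians of the 9 fold changes were -0.01 and 0.02, beside -0.01 and 0.03 for all tested genes. The 2 FABP4 comparisons share arrays with the palmitic acid comparisons.

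The intervals give the precision of each fold change in the fit as reported. Slide and the choice of scaling are not modelled in them. Without palmitic acid, Tap2 aside, the 95% intervals of the 8 other genes, by their brightest probes, lay between -0.17 and 0.18 on the log2 scale. That of the dimmer Nlrc5 probe ran from -0.44 to -0.09. B2m differed by -0.01 ± 0.045, H2-D1 by -0.00096 ± 0.056 and H2-K1 by -0.05 ± 0.054. With palmitic acid present, B2m differed by 0.08 ± 0.045, H2-K1 by 0.06 ± 0.054 and Tap1 by -0.09 ± 0.063.

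Tap1 had levels of 2.42, 2.44 and 2.38 with both agents, against 2.46, 2.58 and 2.48 with palmitic acid alone. Every array with both agents was below every palmitic acid array, which held for 3.1% of all genes in this direction, and the limma adjusted p was 0.824. The difference between the FABP4 effects with and without palmitic acid, tested as an interaction, was called for 0 of the 9 genes and 0% of all tested genes (limma). For Tap1 the interaction was -0.09 ± 0.088 (limma adjusted p = 0.807), with a 95% interval of -0.29 to 0.11.

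Tap2, the partner subunit of Tap1, carried the lowest FABP4 value. Its levels were 5.05, 5.59 and 5.66 on the FABP4 arrays, against 5.68, 5.76 and 5.76 on the control arrays. Every FABP4 array was below every control array, which held for 6.41% of all genes in this direction. The log2 fold change was -0.30 ± 0.13 (limma adjusted p = 0.680).

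The low value came from FABP4 array 1, the FABP4 array on the slide of the controls. The Tap2 spot read 9375 intensity units there and between 13197 and 16229 on the other 11 arrays. That spot carried no outlier flag, and Tap2 has 1 spot per array. Without FABP4 array 1 the FABP4 change of Tap2 was -0.11 ± 0.056 (limma adjusted p = 0.392), and its change with palmitic acid in the presence of FABP4 was 0.08 ± 0.056 in place of 0.27 ± 0.13. With slide as a fixed block, which rests on that array, Tap2 was called for FABP4 without palmitic acid at -0.69 ± 0.071 (limma adjusted p = 0.00418).

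**Figure D3:**
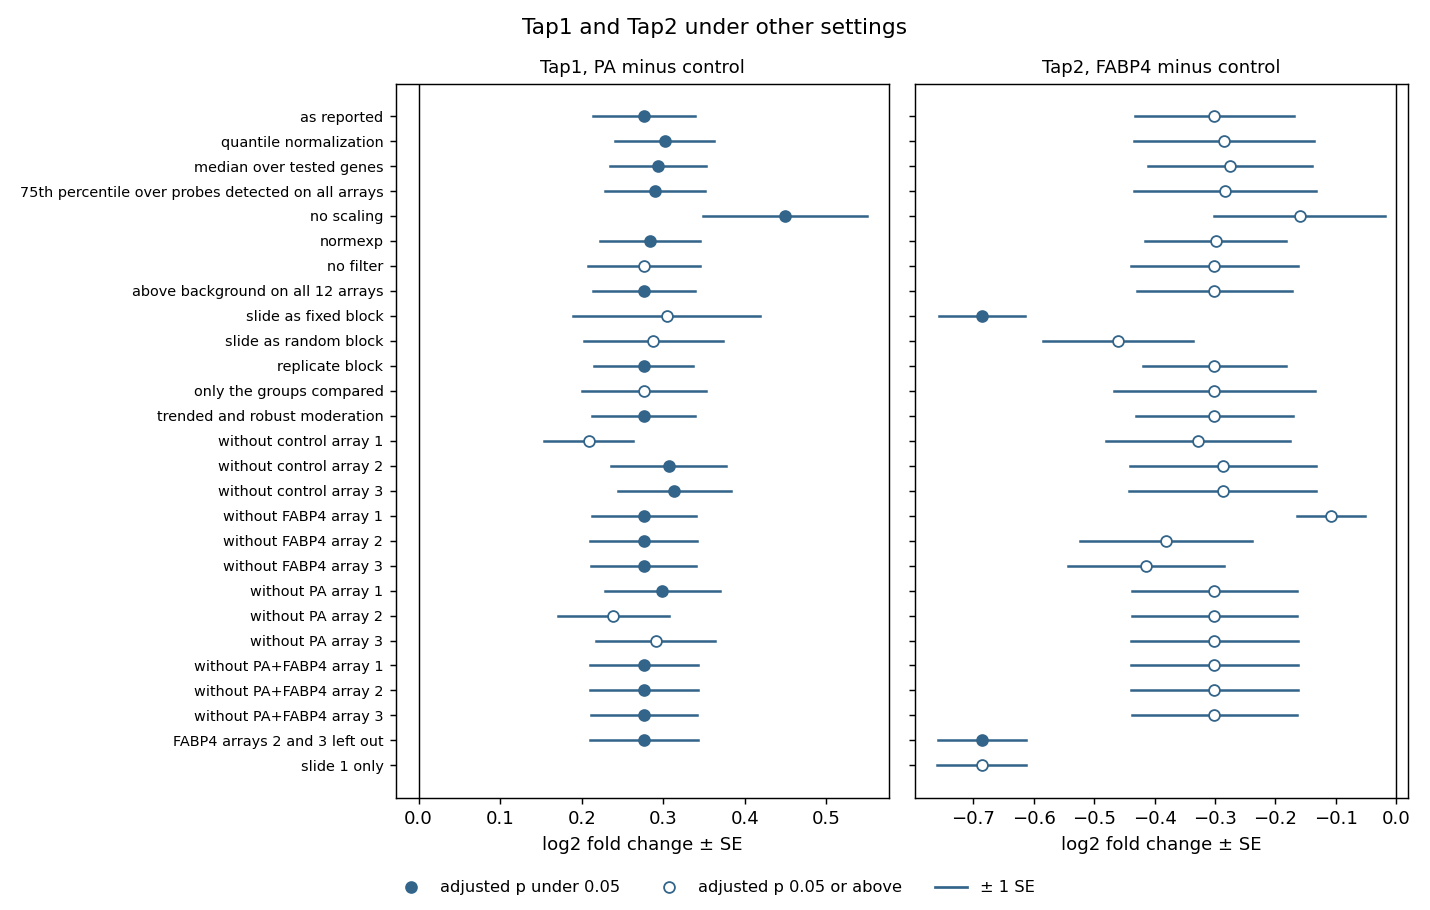
Log2 fold change (x axis, points, with lines of 1 SE each way) of Tap1 for palmitic acid minus control (left) and of Tap2 for FABP4 minus control (right) under the settings listed on the y axis. Tap1 keeps its sign, between 0.21 and 0.45, while Tap2 runs from -0.69, where the comparison rests on FABP4 array 1, to -0.11 without that array.

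Nlrc5 and H2-K1 have a pair of probes each, and those of Nlrc5 gave unlike fold changes for FABP4. The difference between the probes was not tested. The dimmer Nlrc5 probe had levels of -0.28, -0.32 and -0.35 on the FABP4 arrays, against -0.23, 0.04 and 0.04 on the control arrays. Every FABP4 array was below every control array, which held for 6.41% of all genes by their brightest probes. The log2 fold change was -0.26 with an unadjusted limma p of 0.00645 in the fit to every probe. Of all tested genes, by their brightest probes, 7.23% had an unadjusted limma p under 0.05, a looser threshold. The change of the dimmer probe did not pass the adjustment over all 23911 probes (limma adjusted p = 0.496). This probe has 1 spot per array, which read only 216 to 332 intensity units.

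The brighter Nlrc5 probe, at chr8:97051105-97051164, had levels of 5.13, 4.96 and 4.96 on the FABP4 arrays, against 5.04, 5.03 and 4.99 on the control arrays, with a log2 fold change of -0.01 ± 0.059. The groups overlapped. With palmitic acid present, the dimmer probe differed by -0.13 between both agents and palmitic acid alone, and the brighter one by 0.06. Both H2-K1 probes were above 0 for palmitic acid with FABP4, at 0.15 for the brighter and 0.11 for the dimmer one.

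**Figure D4:**
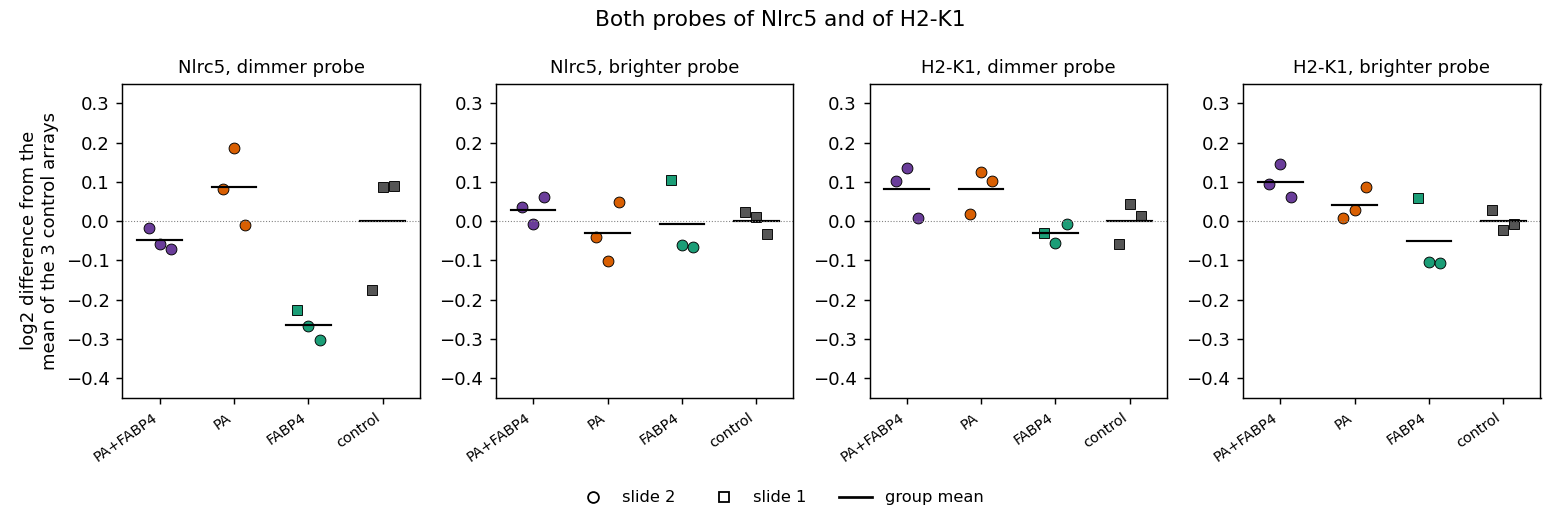
Log2 difference from the mean of the 3 control arrays (y axis) for each array of the 4 groups (x axis) and each probe of Nlrc5 and H2-K1, with squares for slide 1, circles for slide 2 and bars for group means. The 3 FABP4 arrays lie lowest for the dimmer Nlrc5 probe and are spread around 0 for the brighter one.

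Other genes of the pathway were taken as lists. Their counts stand beside 8.61% of all tested genes called with palmitic acid alone and 3.81% with FABP4 present. Upward these shares were 4.88% and 2.86%, and downward 3.73% and 0.943%. Among 14 tested further class I heavy chains, 0 rose and 1 fell with palmitic acid alone (median 0.07), and 0 passed with palmitic acid in the presence of FABP4 (median 0.06). The one that fell was H2-Q4, a heavy chain of the Q region. Its levels were 5.83, 5.75 and 5.85 with palmitic acid, against 6.08, 6.00 and 6.11 in control cells, a change of -0.25 ± 0.054 (limma adjusted p = 0.0196).

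H2-Q4 was also low on the FABP4 arrays, at 5.79, 5.91 and 5.88, including the one on the slide of the controls, but that difference of -0.20 ± 0.054 did not pass (limma adjusted p = 0.464). With slide as a random block the change of H2-Q4 with palmitic acid alone was -0.30 ± 0.070 (limma adjusted p = 0.0820). In the presence of FABP4 no such fall was seen: its mean level was 5.93 with both agents and 5.86 with FABP4 alone. The interaction was 0.32 ± 0.076 and did not pass (limma adjusted p = 0.584). Neighbouring heavy chains are near-identical in parts, so a probe may read more than 1 of them.

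Of 7 tested genes of the immunoproteasome and its activators, 1 rose with palmitic acid alone and the same 1 with FABP4 present. It was Psme3, which encodes the nuclear proteasome activator PA28 gamma. Its levels were 5.66, 5.59 and 5.70 with palmitic acid, against 5.21, 5.43 and 5.27 in control cells, a change of 0.34 ± 0.068 (limma adjusted p = 0.0151). With slide as a random block this was 0.39 ± 0.090 (limma adjusted p = 0.0740) and with slide as a fixed block 0.46 ± 0.12 (limma adjusted p = 0.112), so neither kept the call. With FABP4 present its change was 0.29 ± 0.068 (limma adjusted p = 0.0440). That call was kept with both slide blocks but lost within slide 2 alone, at 0.33 ± 0.061 (limma adjusted p = 0.0527). Psme4, the gene of the activator PA200, was not called by its brightest probe, at -0.25 ± 0.12 with palmitic acid alone (limma adjusted p = 0.225), while another of its probes passed over all probes, at -0.27 ± 0.066 (limma adjusted p = 0.0370).

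Of 12 tested genes of endoplasmic reticulum folding and peptide trimming, 1 rose in each palmitic acid comparison, and 0 fell. It was Hspa5, the chaperone BiP, at 0.21 ± 0.050 without FABP4 (limma adjusted p = 0.0301) and 0.25 ± 0.050 with it (limma adjusted p = 0.0257). The call without FABP4 was lost with slide as a random block, at 0.26 ± 0.065 (limma adjusted p = 0.0994). It was also lost with slide as a fixed block, at 0.32 ± 0.080 (limma adjusted p = 0.112). The call with FABP4 present was kept with both slide blocks but lost within slide 2 alone, at 0.28 ± 0.056 (limma adjusted p = 0.0636). Of 9 tested genes of class I removal and degradation, 0 passed with palmitic acid alone. With FABP4 present 1 rose, Syvn1, the ubiquitin ligase HRD1, by 0.35 ± 0.062 (limma adjusted p = 0.0132), and its change without FABP4 was 0.15 ± 0.062 (limma adjusted p = 0.166).

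Of 17 tested transcription factors and cofactors of class I genes, 0 passed in either palmitic acid comparison, with medians of -0.09 without FABP4 and -0.00077 with it. The smallest p without FABP4 was that of Rfxank, a subunit of the RFX complex, at -0.20 ± 0.056 (limma adjusted p = 0.0547). Of 11 interferon receptor and signalling genes, 0 passed either, with medians of -0.08 and -0.01. In limma 5 of the 17 and 3 of the 11 had an unadjusted p under 0.05 without FABP4, beside 26.5% of all tested genes, and 4 and 1 had one with it, beside 20.9%.

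Of 21 tested interferon-induced genes and interferons, 3 rose and 1 fell with palmitic acid alone. Ifnb1, the gene of interferon beta, had levels of 1.03, 0.79 and 0.84 with palmitic acid, against 0.44, 0.52 and 0.39 in control cells, a change of 0.44 ± 0.066 (limma adjusted p = 0.00506). Every palmitic acid array was above every control array. The antiviral gene Rsad2 rose by 0.26 ± 0.051 (limma adjusted p = 0.0147) and the GTPase gene Igtp by 0.30 ± 0.060 (limma adjusted p = 0.0164), while the chemokine gene Cxcl10 fell by 0.19 ± 0.051 (limma adjusted p = 0.0477).

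With FABP4 present 2 of the 21 rose and 0 fell by their brightest probes: Rsad2 by 0.32 ± 0.051 (limma adjusted p = 0.00954) and Igtp by 0.32 ± 0.060 (limma adjusted p = 0.0189). A second, dimmer Cxcl10 probe was called in both comparisons over all probes, at -0.62 ± 0.087 without FABP4 (limma adjusted p = 0.00484) and -0.56 ± 0.087 with it (limma adjusted p = 0.00967). The median of the 21 was 0.07 without FABP4 and 0.09 with it. For palmitic acid alone, Igtp kept its call with slide as a random and as a fixed block. Ifnb1 kept it with the random block, and with the fixed block was at 0.53 ± 0.12 (limma adjusted p = 0.0813). Rsad2, at 0.31 ± 0.065 with the random block, had a limma adjusted p of 0.0563, and Cxcl10, at -0.16 ± 0.068, one of 0.365. Added FABP4 changed 0 genes of these lists past the test, without or with palmitic acid, beside 0.017% and 0% of all tested genes.

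Of 10 MHC class II genes, 4 were tested and 0 passed in any of the comparisons. Ciita, the class II transactivator, and the class II chains H2-Aa and H2-Oa were not well above background on any array.

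**Figure D5:**
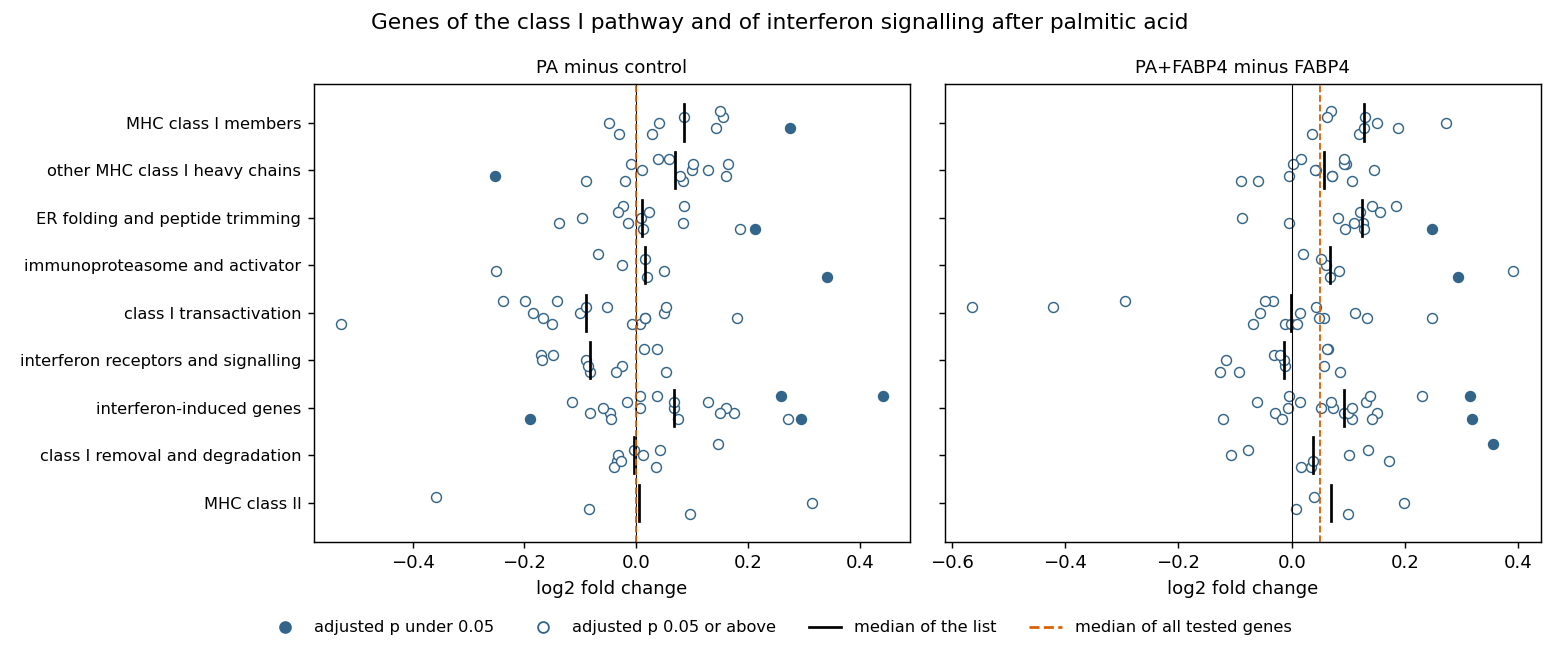
Log2 fold changes (x axis) of all tested genes of each list (y axis) for palmitic acid minus control (left) and for both agents minus FABP4 (right), with filled points for an adjusted p under 0.05, black bars for list medians and a dashed line for the median of all tested genes. Each list holds at most 1 filled point a panel, apart from the interferon-induced genes with 4 and 2, and the 9 class I genes have medians of 0.09 on the left and 0.13 on the right.

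Across the 12 arrays, the other tested gene whose pattern was most like that of Tap1 was Rab20, with a Pearson r of 0.969. The arrays share scaling, slides and groups, so this is a description. B2m was most like Oas1b, at 0.951, and H2-M3 most like Serinc3, at 0.959. Tap2 was most like an unnamed probe, at 0.979, and next Prmt1, at 0.979. Its level of 5.05 on FABP4 array 1 lay far below its other levels, so these r values rest largely on that array. H2-D1 was nearest 9330199G10Rik, at 0.965, H2-K1 nearest 2210018M11Rik, at 0.968, and H2-T23 nearest an unnamed probe, at 0.953. Tapbp was nearest Akap8l, at 0.938, and Nlrc5 nearest Tnfrsf1b, at 0.943.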

How the data were processed

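Total RNA of RAW264.7 cells was labelled with Cy3 and hybridised to one-colour Agilent arrays, with 1 array for each sample. Per the file headers, Agilent Feature Extraction 10.7.3.1 gave the deposited processed intensity of each spot on a linear scale, background-subtracted and not normalized between arrays. The table of values that the authors deposited equals this within 0.005, so it is linear and uncentred, with column medians from 12.97 to 18.4. Further steps by the authors are not given in the sources used here.

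Outlier and control spots were left out, spots of a probe were averaged, and log2 values were set relative to each array's 75th percentile. A probe was tested if any group had it well above background on every array, and the brightest stood for its gene. Models with 4 group means over 12 arrays were fitted with limma 3.58.1 in R 4.3.3, two-sided, at a Benjamini-Hochberg adjusted p under 0.05. Means, SE and n refer to 3 arrays per group, whose number limits the precision. The fit was tested on simulated data with known changes and no slide effect, so that test does not bear on differences between slides. Plots were made with Python 3.11.15 and matplotlib 3.10.9.

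The members and lists were chosen with earlier results of these data known. Named are all 9 genes with every probe, of each list the called genes (at most 4), otherwise the smallest p, though not every one is printed, and the most alike genes by Pearson r. Alternatives covered scaling, background, filters, probes, slide, replicate block, moderation, a minimum change and leaving out arrays. Same-numbered arrays of different groups correlated between -0.08 and 0.17 (deviations from group means), and differently numbered ones between -0.17 and 0.16. The numbers were not used as pairs in the fit as reported, though so few arrays cannot show that no pairing existed.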

Additional observations from a re-analysis of the deposited data

How the results depend on the processing

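The fold changes of the 9 genes in the 5 comparisons were recomputed under the alternatives, 1278 values in all, of which 1259 kept their side of the threshold, 12 gained a call and 7 lost one. All 7 losses were of the only reported call, Tap1 for palmitic acid without FABP4, which passed in 21 of its 28 recomputed values. The sign differed from the reported one in 112 values, none of them called. For palmitic acid without FABP4, 1 gene was called as reported, 2 with quantile normalization, 4 without scaling (Tap1 at 0.45, with the median of all tested genes at 0.17), and 0 with no filter, with slide as a random block, with only the groups compared and with a minimum change of 0.5. With slide as a fixed block the count was 1, but it was Tap2 (-0.63, limma adjusted p = 0.0220) and not Tap1. Leaving out single arrays gave between 0 and 1. For FABP4 without palmitic acid and for the interaction the count was 0 as reported, and 1, Tap2, with slide as a fixed block and with FABP4 arrays 2 and 3 left out (chosen after seeing the data); both rest on FABP4 array 1. For palmitic acid with FABP4 it was 0 as reported, 1 with slide as a fixed block (H2-K1), 1 with FABP4 arrays 2 and 3 left out (Tap2 at 0.66), and between 0 and 1 on leaving out single arrays. FABP4 with palmitic acid gave 0 under every alternative run. The mean of both palmitic acid effects, 3 as reported, gave 1 without scaling, with no filter and with slide as a random block, 0 with slide as a fixed block and with a minimum change of 0.5, and between 1 and 3 on leaving out single arrays. The causes were not tested.

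A replicate block gave 0, 0, 1, 0 and 0 members for the FABP4 comparisons (without and with palmitic acid), the palmitic acid comparisons (without and with FABP4) and the interaction, as reported, so it changed no call among these.

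Counts over all tested genes moved more. Palmitic acid without FABP4 called 1515 as reported, 3055 without scaling (2945 up and 110 down, in place of 858 and 657), 513 with no filter, 138 and 191 with slide as a fixed and as a random block, 10 with a minimum change of 0.5, and 655 to 2716 on leaving out single arrays. Palmitic acid with FABP4 called 670 (504 up and 166 down), of which the split became 381 and 329 with quantile normalization, 443 and 296 with the median over tested genes and 411 and 409 with the percentile over detected probes. It called 159 without scaling (67 up and 92 down), 185 with no filter, 260 within slide 2, 408 with the replicate block, 94 with only the groups compared, 1138 with trended and robust moderation, 11 with a minimum change of 0.5, and 247 to 601 on leaving out single arrays. FABP4 without palmitic acid called 3 as reported, 103 with slide as a fixed block, and 0 to 59 on leaving out single arrays. The interaction called 0 as reported, 3 without scaling and 37 with slide as a fixed block. The 95% intervals of the 9 fold changes reached, by their median, 0.13 to each side on the log2 scale.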
